A study of Homo sapiens with 10 samples.

Results

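System xc- is a membrane exchanger that trades glutamate from inside the cell for cystine from outside, and its mRNAs were followed here together with those of the related carriers that share its heavy chain. The members were SLC7A11, SLC3A2, SLC7A5, SLC7A6, SLC7A7 and SLC7A8, taken by gene symbol from the deposited expression table, 6 genes of 20289 listed. Each gene had a value in all 10 RNA-seq libraries. The libraries came from PANC-1 and CFPAC-1, established human lines of pancreatic ductal adenocarcinoma. Imidazole ketone erastin (IKE), a derivative of erastin, is a small-molecule inhibitor of system xc-. PANC-1 cells received 1 µM IKE (n = 4 libraries) or 0.1% DMSO, the vehicle (n = 2), and CFPAC-1 cells received 10 µM IKE (n = 2) or 0.1% DMSO (n = 2), all for 24 h. No genetic change was made in any group. Dead cells and debris were discarded and the living cells were sequenced, so a change within cells and a difference in which cells survived cannot be told apart. Because each line had its own dose, line and dose cannot be told apart in any difference between the IKE responses of the lines. The libraries were labelled bioreplicates without being called separate cultures, and p-values therefore measure only the spread between these samples. The study set out to look for regulators of ferroptosis, the iron-dependent form of cell death driven by lipid peroxidation.

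The carriers of this group are heterodimers. The heavy chain SLC3A2, also called CD98hc or 4F2hc, is a glycoprotein that takes its partner to the cell surface, and the light chain, joined to it by a disulfide bridge, carries out the transport. SLC7A11 (xCT) exchanges cystine for glutamate, and the cystine it brings in is reduced to cysteine for glutathione, the thiol that glutathione peroxidase GPX4 uses to remove lipid peroxides. SLC7A5 (LAT1) and SLC7A8 (LAT2) exchange leucine and other neutral amino acids, while SLC7A6 (y+LAT2) and SLC7A7 (y+LAT1) exchange cationic for neutral amino acids. The transcription factors ATF4, which responds to amino acid shortage, and NRF2 (NFE2L2), which responds to electrophiles, are known to raise SLC7A11 expression.

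SLC3A2 and SLC7A5 were the members whose mRNA passed the test for a rise with IKE in both lines, and their start regions are shown for that reason. They are RefSeq promoter windows on GRCh38.p14 that run from 250 bases before to 50 bases after a start site, 5′ to 3′ on the gene's own strand. Capitals mark matches to the antioxidant response core TGACNNNGC or to the C/EBP-ATF composite TGATGNAA, each searched on both strands. SLC3A2 has 3 windows at different start sites, and the 1 shown was picked because it held matches, while the other 2 held none. It lay at chr11:62881449-62881748 on the plus strand, and the SLC7A5 window at chr16:87869458-87869757 on the minus strand.
SLC3A2 window 3: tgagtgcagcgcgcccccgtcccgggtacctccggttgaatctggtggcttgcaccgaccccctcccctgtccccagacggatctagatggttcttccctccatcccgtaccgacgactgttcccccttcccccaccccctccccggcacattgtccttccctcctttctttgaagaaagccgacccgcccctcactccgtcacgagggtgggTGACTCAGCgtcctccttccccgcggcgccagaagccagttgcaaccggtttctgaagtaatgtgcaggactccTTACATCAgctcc
SLC7A5 window: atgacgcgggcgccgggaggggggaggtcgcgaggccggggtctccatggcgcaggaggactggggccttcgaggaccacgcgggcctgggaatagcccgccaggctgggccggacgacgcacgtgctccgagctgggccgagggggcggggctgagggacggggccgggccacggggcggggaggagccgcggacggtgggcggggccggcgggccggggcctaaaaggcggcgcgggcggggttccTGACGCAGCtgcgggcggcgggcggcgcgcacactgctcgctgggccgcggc
This SLC3A2 window held TGACTCAGC, whose first base lay at -37 from the start site, and TTACATCA at +37, which is TGATGNAA read on the other strand. The SLC7A5 window held TGACGCAGC with its first base at -2 and no match to TGATGNAA. SLC7A11 had no window in the source used, so its start region was not searched. Windows were found for the other 5 of the 6 members, 12 windows in all, of which 4 held a match. The other matches were a pair to the antioxidant response core in SLC7A6, TGACGAGGC and TGACGTGGC, and TGACCAGGC in SLC7A7. Among all 35116 windows, 13.3% held the antioxidant response core, 3.62% the C/EBP-ATF composite and 0.39% both. The share that held either was not computed, so the count of 4 stands without a background. Windows 2 and 3 of SLC7A8 overlap, so the 12 windows are not separate. The matches do not overlap each other, and they are descriptions of these letters only.

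Values were FPKM, fragments per kilobase scaled to library size, so levels can be set beside each other between genes. FPKM totals per library ran from 405937 to 472665, genes at 1 FPKM or more from 11604 to 12248, and the mitochondrially encoded share from 2.65% to 5.27%. Keratins of simple epithelium were high in both lines, with KRT8 at 2621 to 3095 FPKM in PANC-1 and 2141 to 2773 FPKM in CFPAC-1. KRT18 ran from 1465 to 1803 FPKM in PANC-1 and from 1239 to 1340 FPKM in CFPAC-1, and KRT19 from 721 to 891 FPKM in PANC-1 and from 2006 to 2228 FPKM in CFPAC-1. The other markers of the list, KRT7, EPCAM and MUC1, were far lower in PANC-1. KRT7 ran from 4.39 to 6.15 FPKM in PANC-1 and from 271 to 330.4 FPKM in CFPAC-1. EPCAM ran from 8.58 to 11.1 FPKM in PANC-1 and from 152 to 158 FPKM in CFPAC-1, and MUC1 from 14.2 to 19.8 FPKM in PANC-1 and from 228.5 to 286 FPKM in CFPAC-1. Of the 5 markers of other cell types, PTPRC (leukocytes), PRSS1 (acinar cells), INS (beta cells) and ALB (liver cells) stayed at or below 0.18 FPKM in every library. PECAM1, an endothelial marker, stood at 0.03 to 0.08 FPKM in PANC-1 and 18.4 to 21.3 FPKM in CFPAC-1, and its part in the differences between the lines was not tested. As in any bulk sample, fewer cells of a type and less RNA per cell cannot be told apart.

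SLC7A11, the cystine-carrying light chain (chr4:138164097-138242349, minus strand, GRCh38), rose with IKE in PANC-1. It stood at 15.4, 9.89, 10.8 and 15.3 FPKM in PANC-1 libraries 1 to 4 with IKE, against 5.28 and 5.68 FPKM with DMSO. In CFPAC-1 it stood at 68.8 and 70.1 FPKM with IKE, against 39.5 and 40.5 FPKM with DMSO. The treated libraries lay above their controls without overlap in both lines, and PANC-1 replicates 1 and 4 lay apart from replicates 2 and 3. The share of all genes whose groups separate in this way was not computed. Lack of overlap, here and below, is therefore a description of so few libraries and no support for a change. In the limma fit on log2(FPKM + 1), the log2 fold change was 1.07 ± 0.15 (SE) in PANC-1, a 2.1-fold difference, with a Benjamini-Hochberg adjusted p of 0.00538 over all 13077 genes tested. Fitted folds, here and below, are of FPKM + 1 and can lie below the ratio of the FPKM means. In CFPAC-1 it was 0.78 ± 0.18 with an adjusted p of 0.0593, which misses the threshold of 0.05, and its 95% interval ran from 0.39 to 1.17. The CFPAC-1 call was gained in 7 of the alternative fits: with quantile normalization (adjusted p = 0.0441), a minimum of 5 FPKM (0.0448), separate fits of each line (9.1e-04), only replicates 3 and 4 of PANC-1 with IKE (0.0281), and without PANC-1 IKE replicate 1 (0.0455), 2 (0.0266) or 4 (0.043). All other alternatives missed the threshold again, among them those without any 1 of the CFPAC-1 libraries. With 1 library left out, the CFPAC-1 log2 fold change ran from 0.76 to 0.8. The PANC-1 call was lost without PANC-1 DMSO replicate 1 (adjusted p = 0.0809). SLC7A11-AS1 overlaps the gene on the opposite strand and was not analysed here, and the sources used here do not say whether counting used strand.

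SLC3A2, the heavy chain (chr11:62856102-62888875, plus strand), rose with IKE in both lines. It stood at 129, 119, 103 and 111 FPKM in PANC-1 libraries 1 to 4 with IKE, against 83.8 and 80.05 FPKM with DMSO. In CFPAC-1 it stood at 135 and 141 FPKM with IKE, against 67.5 and 74.1 FPKM with DMSO. Every treated library lay above every control library of its line. The log2 fold change was 0.49 ± 0.08 in PANC-1 (1.4-fold, adjusted p = 0.0142) and 0.96 ± 0.10 in CFPAC-1 (1.94-fold, adjusted p = 3.39e-04). The PANC-1 call was lost without PANC-1 DMSO replicate 1 (adjusted p = 0.121) or 2 (0.114).

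SLC7A5, the leucine-carrying light chain (chr16:87830023-87869488, minus strand), had the largest fold change among the members, in CFPAC-1. It stood at 40.4 and 42.9 FPKM in CFPAC-1 libraries with IKE, against 10.2 and 9.41 FPKM with DMSO. In PANC-1 it stood at 103, 104, 86.3 and 92.8 FPKM in libraries 1 to 4 with IKE, against 75.6 and 71.5 FPKM with DMSO. The groups did not overlap in either line, but the gap in PANC-1 was small beside the level. The log2 fold change was 1.98 ± 0.09 in CFPAC-1 (3.94-fold, adjusted p = 6.60e-07) and 0.38 ± 0.08 in PANC-1 (1.31-fold, adjusted p = 0.0339). The PANC-1 call was lost without any 1 of 8 of the 10 libraries, all except PANC-1 IKE replicates 2 and 3, with adjusted p between 0.0507 and 0.193. It was also lost with no filter on low values (adjusted p = 0.0615), in separate fits of each line (0.0556) and with only replicates 3 and 4 of PANC-1 with IKE (0.0661).

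The y+L light chains SLC7A6 and SLC7A7 did not pass the test with IKE in either line. SLC7A6 (chr16:68264516-68301823, plus strand) stood at 18.3, 18.7, 18.0 and 15.25 FPKM in PANC-1 libraries with IKE and at 19.2 and 17.1 FPKM with DMSO. In CFPAC-1 it stood at 3.86 and 4.24 FPKM with IKE and at 4.34 and 4.37 FPKM with DMSO. The treated and control ranges overlapped in PANC-1, and in CFPAC-1 the treated libraries lay just below the controls. Its log2 fold change was -0.05 in PANC-1 (95% interval -0.26 to 0.16, adjusted p = 0.852) and -0.09 in CFPAC-1 (-0.33 to 0.16, adjusted p = 0.814). SLC7A6OS overlaps SLC7A6 by 17321 bases on the opposite strand. It averaged 5.6 FPKM with IKE and 5.59 FPKM with DMSO in PANC-1, and 7.34 FPKM with IKE and 8.89 FPKM with DMSO in CFPAC-1. Its part in the SLC7A6 values was not tested.

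SLC7A7 (chr14:22773222-22829820, minus strand) stood at 0.65, 1.26, 0.78 and 0.99 FPKM in PANC-1 libraries with IKE and at 0.8 and 0.47 FPKM with DMSO. In CFPAC-1 it stood at 10.8 and 12.5 FPKM with IKE and at 8.56 and 9.48 FPKM with DMSO. The CFPAC-1 groups were apart and the PANC-1 groups overlapped around the filter of 1 FPKM. Its log2 fold change was 0.23 in PANC-1 (95% interval -0.07 to 0.53, adjusted p = 0.428) and 0.33 in CFPAC-1 (-0.01 to 0.68, adjusted p = 0.391).

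SLC7A8, the light chain LAT2 (chr14:23125295-23183674, minus strand), was near 0 throughout and was left out of the fit by the filter of at least 1 FPKM in 2 libraries. It stood at 0.09, 0.28, 0.05 and 0.06 FPKM in PANC-1 with IKE, 0.13 and 0.18 FPKM in PANC-1 with DMSO, 0.14 and 0.38 FPKM in CFPAC-1 with IKE, and 0.38 and 0.2 FPKM in CFPAC-1 with DMSO. All groups overlapped. In a fit of 17662 genes without the filter, its adjusted p for IKE against DMSO was 0.918 in PANC-1 and 1.00 in CFPAC-1.

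**Figure D1:**
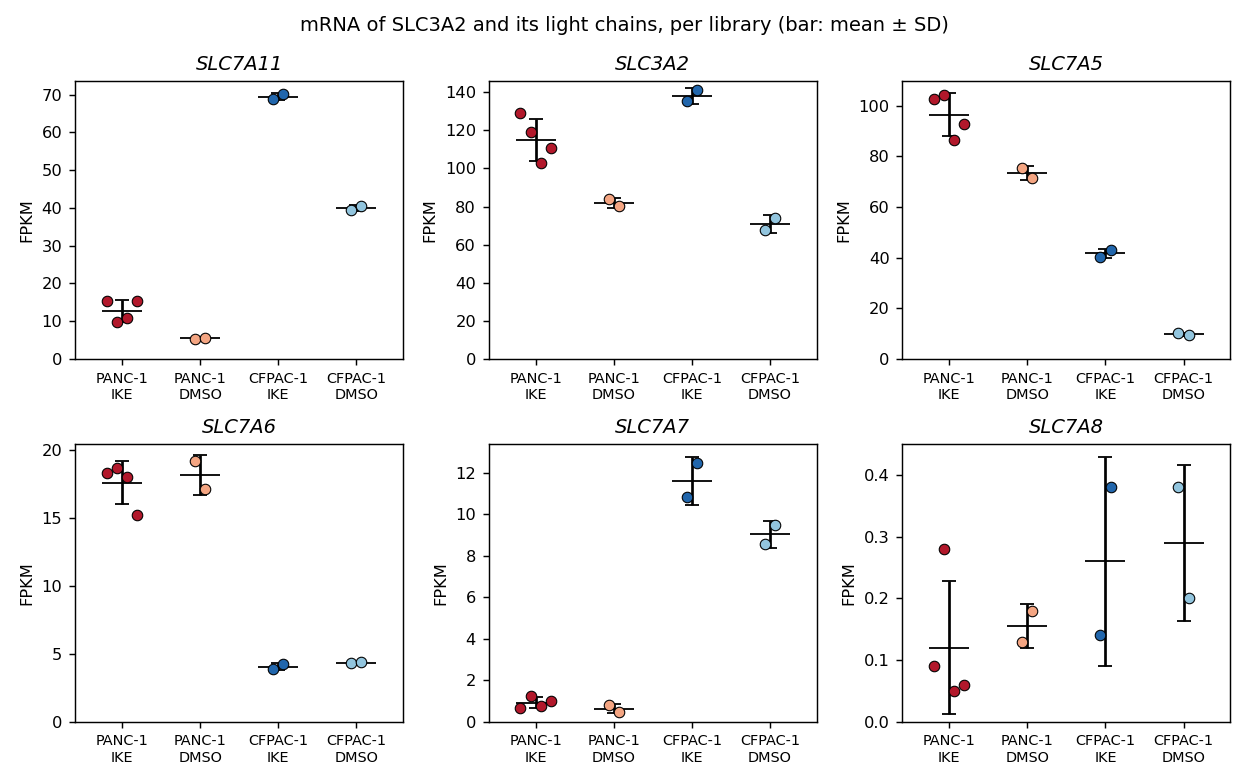
FPKM of each member in each library, with a point per library and a bar at the mean ± SD of the group, for PANC-1 with IKE (n = 4), PANC-1 with DMSO (n = 2), CFPAC-1 with IKE (n = 2) and CFPAC-1 with DMSO (n = 2). Every axis starts at 0 and each gene has its own scale. The treated points lie above their controls for SLC7A11, SLC3A2 and SLC7A5 in both lines, while SLC7A8 stays below 0.4 FPKM.

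Counted over the members, 3 of the 5 tested were higher with IKE in PANC-1 and 0 were lower, beside 1.21% of all tested genes called higher and 1.17% called lower there. In CFPAC-1, 2 of the 5 were higher and 0 were lower, beside 0.864% of all tested genes called higher and 0.459% called lower. At an unadjusted limma p under 0.05, 3 members were higher and 0 were lower in each line. The share of all tested genes at that unadjusted threshold was not computed. Counts at it, here and below, therefore stand without a background. The median log2 fold change of all tested genes was -0.01 in PANC-1 and 0.00 in CFPAC-1. The plot of members by library shows the values behind these counts, and the plot of fold changes with intervals shows the fits.

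**Figure D2:**
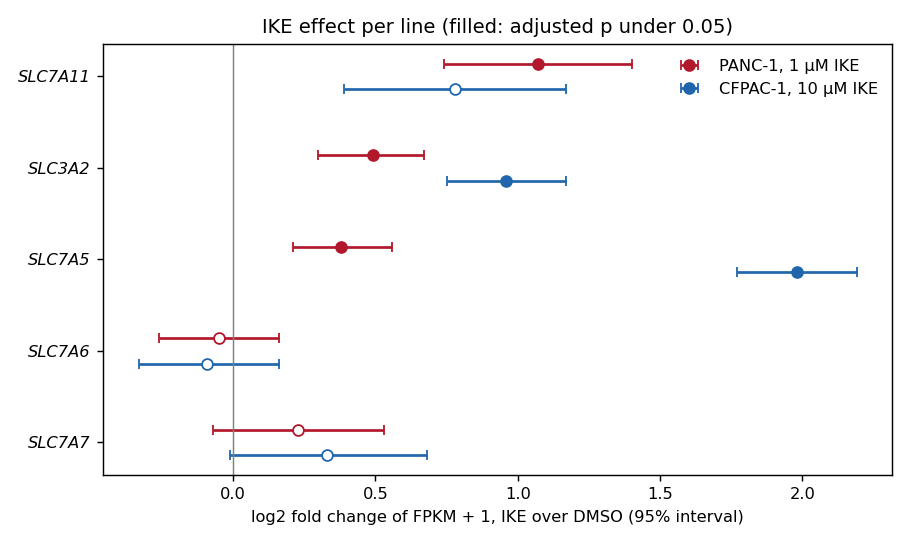
Log2 fold change of FPKM + 1, IKE over DMSO, with its 95% interval from limma, for the 5 tested members in PANC-1 (1 µM IKE, red) and CFPAC-1 (10 µM IKE, blue). Filled points have an adjusted p under 0.05. The intervals of SLC7A5 lie far apart between the lines (0.38 in PANC-1 and 1.98 in CFPAC-1), while those of SLC7A6 and SLC7A7 reach 0 in both lines.

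The difference of the IKE effects between the lines, PANC-1 minus CFPAC-1, was tested for each member. SLC7A5 was the member that passed, with a difference of -1.59 ± 0.12 on the log2 scale (95% interval -1.87 to -1.32, adjusted p = 6.61e-04). The SLC7A5 response was smaller in PANC-1. Its control level was 73.5 ± 2.9 FPKM (SD, n = 2) in PANC-1 and 9.82 ± 0.58 FPKM in CFPAC-1. Whether the control level bears on the response was not tested. SLC3A2 differed by -0.47 (95% interval -0.75 to -0.19, adjusted p = 0.173), which passed the threshold with PANC-1 IKE replicates 3 and 4 alone (-0.58, adjusted p = 0.0406). SLC7A11 differed by 0.29 (95% interval -0.22 to 0.80, adjusted p = 0.657), so a difference of either sign was not detectable. Of the 5 tested members, 0 were called higher and 1 was called lower, beside 0.107% of all tested genes higher and 0.229% lower. At an unadjusted limma p under 0.05 these counts were 0 and 2, and the share of all genes was not computed.

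With DMSO alone, the lines differed in the mRNA levels of their light chains. SLC7A5 averaged 73.5 ± 2.9 FPKM in PANC-1 and 9.82 ± 0.58 FPKM in CFPAC-1 (SD, n = 2 each), a log2 difference of 2.78 ± 0.09 (6.89-fold, adjusted p = 1.71e-10). SLC7A6 averaged 18.2 ± 1.48 FPKM in PANC-1 and 4.36 ± 0.0212 FPKM in CFPAC-1, a log2 difference of 1.84 ± 0.11 (3.58-fold, adjusted p = 2.55e-08). SLC7A11 and SLC7A7 ran the other way. SLC7A11 averaged 5.48 ± 0.283 FPKM in PANC-1 and 40.0 ± 0.728 FPKM in CFPAC-1, a log2 difference of -2.66 ± 0.18 (adjusted p = 5.90e-08). SLC7A7 averaged 0.635 ± 0.233 FPKM in PANC-1 and 9.02 ± 0.651 FPKM in CFPAC-1, a log2 difference of -2.62 ± 0.16 (adjusted p = 2.72e-08). Adding 1 FPKM understates this difference, since SLC7A7 lay below 1 FPKM in PANC-1 with DMSO. SLC7A7 passed the filter on low values through CFPAC-1, where it is high, since 1 PANC-1 library reached 1 FPKM, so its call is a description and no support for a count of members. The heavy chain was close in both lines, with SLC3A2 at 81.9 ± 2.64 FPKM in PANC-1 and 70.8 ± 4.61 FPKM in CFPAC-1. Its log2 difference of 0.21 ± 0.10 had an adjusted p of 0.0645, and in 6 alternative fits it passed the threshold with adjusted p between 0.0154 and 0.0361. The lines differ widely, since 43.4% of all tested genes were called higher in PANC-1 and 35.2% lower, with a median log2 difference of 0.12 (-0.01 with median-ratio scaling), so the members' counts of 2 higher and 2 lower of 5 lie close to that background. Among the called members, each library of a line lay apart from each library of the other under both treatments.

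The order of the members' levels differed between the lines. In PANC-1 with IKE, SLC3A2 and SLC7A5 came first with ranges that overlapped (103 to 129 FPKM and 86.3 to 104 FPKM), SLC7A6 and SLC7A11 followed, again overlapping (15.25 to 18.7 FPKM and 9.89 to 15.4 FPKM), and SLC7A7 and SLC7A8 came last. In PANC-1 with DMSO the order was SLC3A2, SLC7A5, SLC7A6, SLC7A11, SLC7A7 and SLC7A8, with no overlap between neighbours. In CFPAC-1 with IKE the order was SLC3A2, SLC7A11, SLC7A5, SLC7A7, SLC7A6 and SLC7A8, with no overlap. In CFPAC-1 with DMSO it was the same except that SLC7A5 and SLC7A7 overlapped.

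The light-chain mRNAs can be summed per library, since FPKM is per length, and set beside their shared heavy chain. The sum was 137, 134, 116 and 124 FPKM in PANC-1 with IKE, against 101 and 94.9 FPKM with DMSO. In CFPAC-1 it was 124 and 130.1 FPKM with IKE, against 63.0 and 64.0 FPKM with DMSO. The sum of the light chains therefore lay higher in every treated library, as did SLC3A2. The ratio of the sum to SLC3A2 stayed between 0.864 and 1.21 over all 10 libraries. In PANC-1 it was 1.06, 1.13, 1.13 and 1.12 with IKE, against 1.21 and 1.19 with DMSO, and in CFPAC-1 it was 0.916 and 0.922 with IKE, against 0.933 and 0.864 with DMSO. The treated libraries lay below their controls in PANC-1 and between them in CFPAC-1. The log2 ratio differed by -0.108 in PANC-1 and 0.0342 in CFPAC-1, with a mean of -0.0367. An exact permutation test of treatment labels within each line, two-sided over 90 arrangements, gave p = 0.389, or 0.422 adjusted over the 6 measures tested. The test passed the threshold, before adjustment, without CFPAC-1 DMSO replicate 2 (-0.0644, exact p = 0.0222) and with SLC7A5 left out of the sum (-0.213, exact p = 0.0222).

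**Figure D3:**
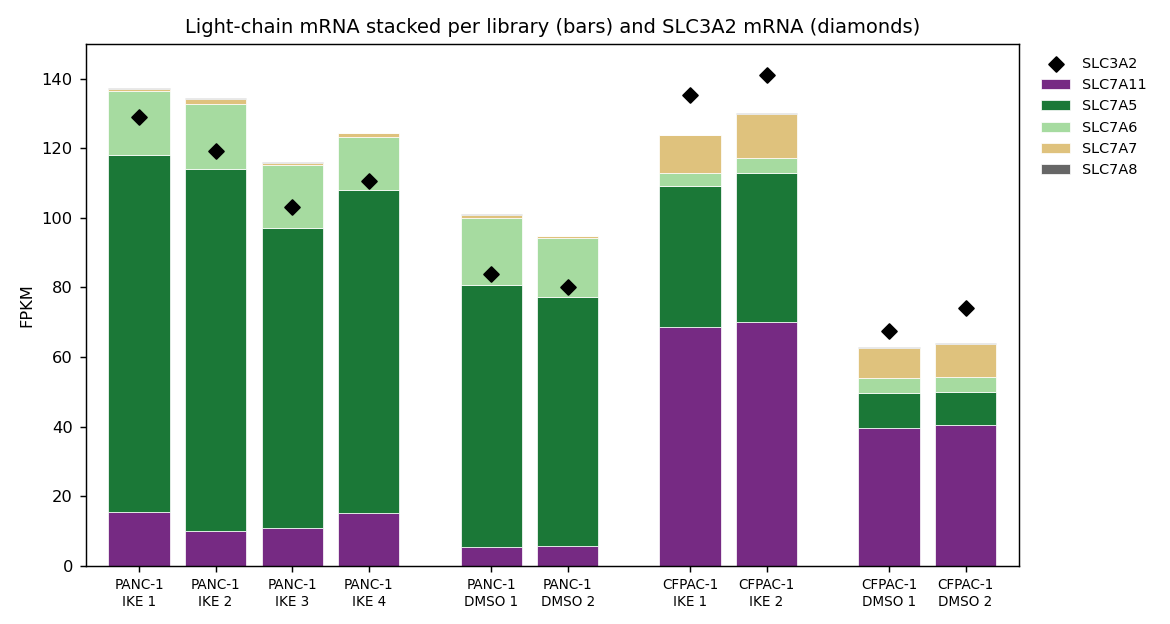
FPKM of the 5 light chains stacked per library (bars, from 0) with SLC3A2 as diamonds, for the 10 libraries. The bars in PANC-1 are mostly SLC7A5 (dark green) and those in CFPAC-1 mostly SLC7A11 (purple), while the diamonds stay near the top of the bars, at a ratio of sum to SLC3A2 of 0.864 to 1.21.

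The make-up of the sum differed between the lines under both treatments. SLC7A5 held 74.9%, 77.6%, 74.5% and 74.6% of the light-chain FPKM in PANC-1 with IKE, against 74.8% and 75.3% with DMSO. In CFPAC-1 it held 32.6% and 33% with IKE, against 16.2% and 14.7% with DMSO. The SLC7A5 share was thus level in PANC-1 and higher in both treated CFPAC-1 libraries. SLC7A11 held 11.2%, 7.36%, 9.3% and 12.3% in PANC-1 with IKE, against 5.23% and 5.98% with DMSO. In CFPAC-1 it held 55.5% and 53.9% with IKE, against 62.7% and 63.3% with DMSO. The SLC7A11 share lay above the controls in PANC-1 and below them in CFPAC-1, without overlap in either line. The difference of these effects, PANC-1 minus CFPAC-1, was 12.8 percentage points (exact permutation p = 0.0222, or 0.133 adjusted over 6 measures). That test shuffled treatment labels within each line, so it asks whether IKE had no effect in either line. An effect in 1 line alone could also give a small p, so it cannot decide whether the lines differ. With SLC7A5 left out of the sum, the mean change of the SLC7A11 share over both lines was 12.4 percentage points in place of -1.96.

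SLC7A6 held 13.3%, 13.9%, 15.5% and 12.3% of the light-chain FPKM in PANC-1 with IKE, against 19.0% and 18.0% with DMSO. In CFPAC-1 it held 3.11% and 3.26% with IKE, against 6.89% and 6.83% with DMSO. Its share was lower in every treated library of both lines, by 4.23 percentage points on average. The exact permutation p was 0.0111, the smallest these 90 arrangements can give, and 0.0667 after adjustment over 6 measures. A share falls when other chains rise, and the FPKM of SLC7A6 itself did not pass the test. The mean changes of the shares of SLC7A5 (8.83 points, exact p = 0.156), SLC7A7 (-2.49, exact p = 0.233), SLC7A11 (-1.96, exact p = 0.422) and SLC7A8 (-0.162, exact p = 0.1) did not pass. The SLC7A8 share passed before adjustment without PANC-1 IKE replicate 2 (-0.181, exact p = 0.0167). The ratio of SLC7A5 to SLC7A11 averaged 7.82 ± 1.98 with IKE (SD, n = 4) and 13.4 ± 1.22 with DMSO (n = 2) in PANC-1. In CFPAC-1 it averaged 0.6 ± 0.0175 with IKE and 0.246 ± 0.019 with DMSO (n = 2 each). It was lower with IKE in PANC-1 and higher with IKE in CFPAC-1, and the groups did not overlap in either line.

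Likeness between genes was described by Pearson's r over the 10 libraries, after each line's mean of log2(FPKM + 1) was subtracted, among 12222 other genes. These points share libraries and treatment, and no p is given. SLC7A11 was most like PPIF (0.989), COX7A2L (0.978) and HSPA1A (0.978), a heat-shock gene whose near-identical copy HSPA1B makes its value uncertain. PPIF encodes cyclophilin D of the mitochondrial matrix. In PANC-1 all of these were highest in IKE replicates 1 and 4, as SLC7A11 was. HSPA1A stood there at 124, 98.2, 93.4 and 117 FPKM with IKE, against 63.8 and 68.1 FPKM with DMSO.

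SLC3A2 was most like SLC7A1 (0.992), a carrier of cationic amino acids, SLC1A5 (0.988), a glutamine carrier, and NQO1 (0.987), a quinone reductase. SLC7A5 was most like ATF4 (0.991), XPOT (0.985), the exporter of tRNA, and MTHFD2 (0.984), a mitochondrial folate enzyme. Within the PANC-1 libraries alone, r with SLC7A5 was lower, at 0.894 for ATF4, 0.881 for XPOT and 0.931 for MTHFD2. SLC7A5 itself ranked 51st for SLC3A2 (r = 0.940), and SLC3A2 ranked 217th for SLC7A11 (r = 0.836). Over all libraries SLC7A5 thus lay closer to the heavy chain than SLC7A11 did, and this was not computed within each line. SLC7A5 ranked 922nd for SLC7A11 (r = 0.658). For SLC7A6 the highest values were RCC1L (0.890), GPRASP2 (0.883) and ELK1 (0.881), and for SLC7A7 TUBGCP2 (0.946), TRAF1 (0.942) and MAP3K3 (0.927).

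**Figure D4:**
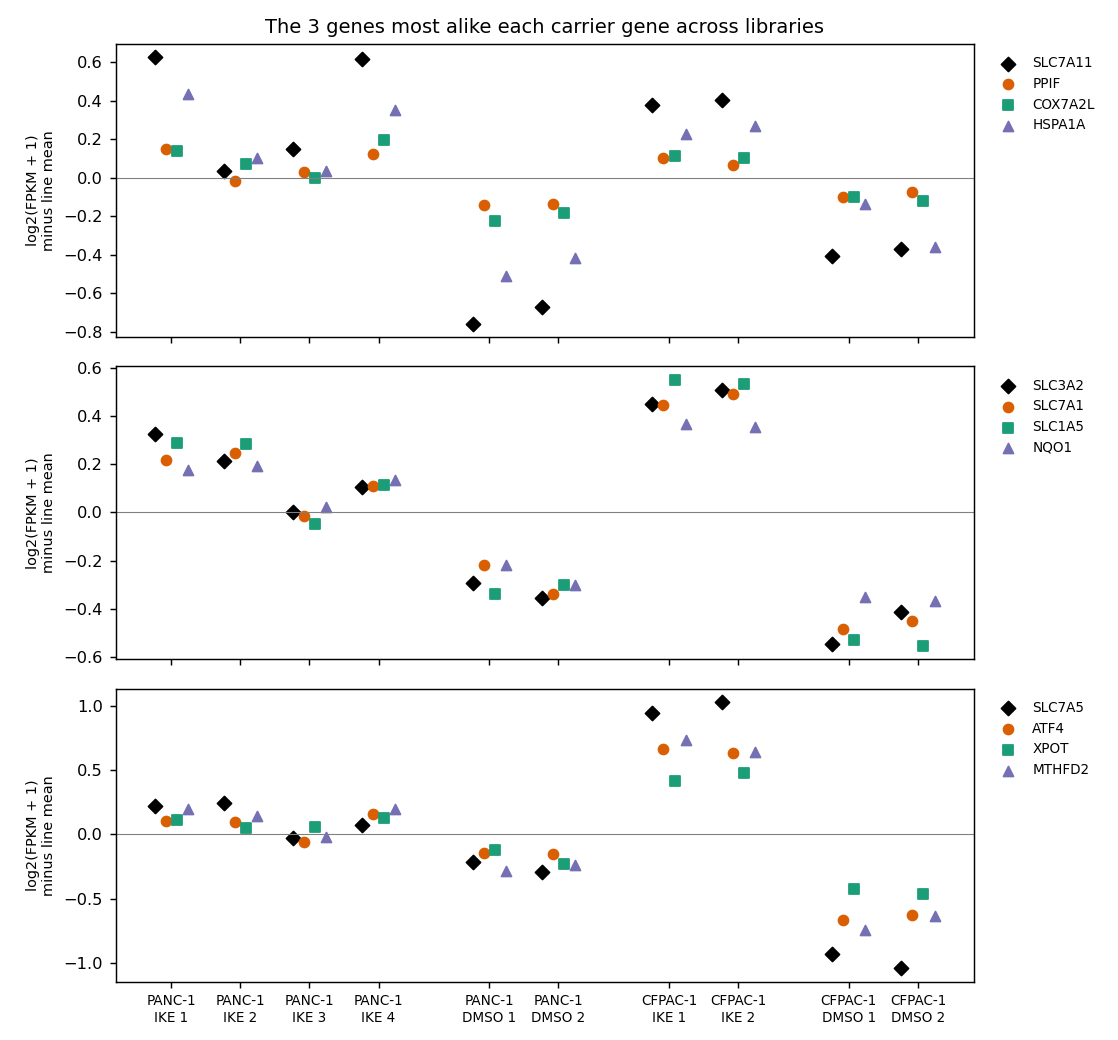
Log2(FPKM + 1) minus the mean of its line in each library, for SLC7A11, SLC3A2 and SLC7A5 (black diamonds) and the 3 genes most like each. Each panel has its own scale. PANC-1 IKE replicates 1 and 4 stand out for SLC7A11 (0.626 and 0.618), and CFPAC-1 carries the widest spread for SLC7A5.

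Genes that work around these carriers were counted list by list, in lists chosen with earlier results of these data known. Beside every list count below, 1.21% of all tested genes were called higher with IKE in PANC-1 and 1.17% lower. In CFPAC-1 these shares were 0.864% and 0.459%. Among 12 genes from cystine and cysteine to glutathione, 5 rose with IKE in PANC-1 and 0 fell, with a median log2 fold change of 0.38, and 4 rose in CFPAC-1 and 0 fell, with a median of 0.53. CBS, the enzyme that starts transsulfuration, averaged 40.4 ± 1.36 FPKM with IKE and 20.9 ± 0.0424 FPKM with DMSO in PANC-1 (log2 fold change 0.92, adjusted p = 1.82e-04). In CFPAC-1 it averaged 13.2 ± 0.799 FPKM with IKE and 2.81 ± 0.29 FPKM with DMSO (1.89, adjusted p = 4.05e-07). GCLC, the catalytic subunit of the first glutathione-making enzyme, rose by 0.64 in PANC-1 (adjusted p = 0.00747) and by 1.34 in CFPAC-1 (adjusted p = 9.04e-05). Its modifier GCLM rose by 0.92 in PANC-1 (adjusted p = 0.0190), with 0.75 in CFPAC-1 (adjusted p = 0.0939). TXNRD1, which reduces thioredoxin and cystine, rose by 0.73 in PANC-1 (adjusted p = 0.00191) and by 0.76 in CFPAC-1 (adjusted p = 0.00189). GSR, which reduces glutathione disulfide, rose by 0.38 in PANC-1 (adjusted p = 0.0212), with 0.30 in CFPAC-1 (adjusted p = 0.122). CHAC1, which degrades glutathione, averaged 5.57 ± 0.811 FPKM with IKE and 4.08 ± 1.05 FPKM with DMSO in PANC-1 (adjusted p = 0.198). In CFPAC-1 it averaged 5.32 ± 0.177 FPKM with IKE and 0.745 ± 0.163 FPKM with DMSO (log2 fold change 1.86, adjusted p = 1.36e-04). The PANC-1 count was 2 without PANC-1 DMSO replicate 1 and 3 without replicate 2, with GCLC lost in the first case (adjusted p = 0.137) and GCLM in both (0.135 and 0.136). GCLM was also lost with no filter on low values (0.0577).

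Among 12 regulators of system xc-, 0 passed with IKE in PANC-1 and 1, ATF4, rose in CFPAC-1. In PANC-1, 4 were higher at an unadjusted limma p under 0.05, for which no share of all genes was computed. The count of adjusted calls there was 1 without IKE replicate 2 and 2 without replicate 3. ATF4 averaged 116 ± 7.51 FPKM with IKE and 99.2 ± 0.665 FPKM with DMSO in PANC-1 (log2 fold change 0.22, adjusted p = 0.0951). In CFPAC-1 it averaged 230.0 ± 3.17 FPKM with IKE and 92.7 ± 1.79 FPKM with DMSO (2.47-fold for FPKM + 1, adjusted p = 2.98e-06). Like SLC7A5, ATF4 differed between the lines, by -1.08 (PANC-1 minus CFPAC-1, adjusted p = 0.00146). NFE2L2 mRNA did not pass in PANC-1 (-0.02, adjusted p = 0.896) or CFPAC-1 (0.16, adjusted p = 0.306). ATF3, a stress-induced factor that represses SLC7A11, averaged 7.9 ± 3.1 FPKM with IKE and 2.71 ± 0 FPKM with DMSO in PANC-1 (1.19, adjusted p = 0.0509). In CFPAC-1 it averaged 2.22 ± 0.212 FPKM with IKE and 1.63 ± 0.919 FPKM with DMSO (0.34, adjusted p = 0.728).

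Carriers with related substrates were mostly not called. Of 9 other SLC3 and SLC7 genes, 2 passed the filter and 1, SLC7A1, rose in PANC-1 (0.42, adjusted p = 0.0244) and in CFPAC-1 (0.93, adjusted p = 3.48e-04). Its PANC-1 call was lost without PANC-1 DMSO replicate 1 (adjusted p = 0.137) or 2 (0.177), or IKE replicate 1 (0.0561) or 4 (0.0509), in separate fits of each line (0.052), and with only replicates 3 and 4 of PANC-1 with IKE (0.0567). Of 11 other carriers of glutamate, cystine and cysteine, 5 were tested, and SLC1A4, a carrier of neutral amino acids, was the 1 that rose in each line. It averaged 9.28 ± 0.705 FPKM with IKE and 3.91 ± 0.537 FPKM with DMSO in PANC-1 (log2 fold change 1.07, adjusted p = 9.56e-04). Its CFPAC-1 call (0.62, adjusted p = 0.0416) was at 1.03 FPKM with IKE and 0.325 FPKM with DMSO, and it was lost without any CFPAC-1 library or without PANC-1 IKE replicate 1, 3 or 4 (adjusted p between 0.0593 and 0.253). It was also lost with quantile normalization (0.0694), no filter on low values (0.0731), the replicate block (0.05), or only replicates 1 and 2 (0.0806) or 3 and 4 (0.0568) of PANC-1 with IKE. Of 10 leucine and glutamine carriers without SLC3A2, 7 were tested, and 1 rose in PANC-1 and 3 in CFPAC-1. SLC1A5 rose by 0.48 in PANC-1 (adjusted p = 0.0182) and by 1.08 in CFPAC-1 (adjusted p = 1.87e-04), and the PANC-1 call was lost without PANC-1 DMSO replicate 1 (0.176) or 2 (0.104). SLC38A2 rose by 0.51 in CFPAC-1 (adjusted p = 0.00510) and SLC38A1 by 0.40 (adjusted p = 0.0419). SLC38A2 was lost without CFPAC-1 DMSO replicate 2 (0.0635) or IKE replicate 2 (0.0762), and SLC38A1 without any 1 of 8 libraries, all except PANC-1 IKE replicates 2 and 4 (0.062 to 0.241). The CFPAC-1 count was 1 without CFPAC-1 DMSO replicate 2 or IKE replicate 2.

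**Figure D5:**
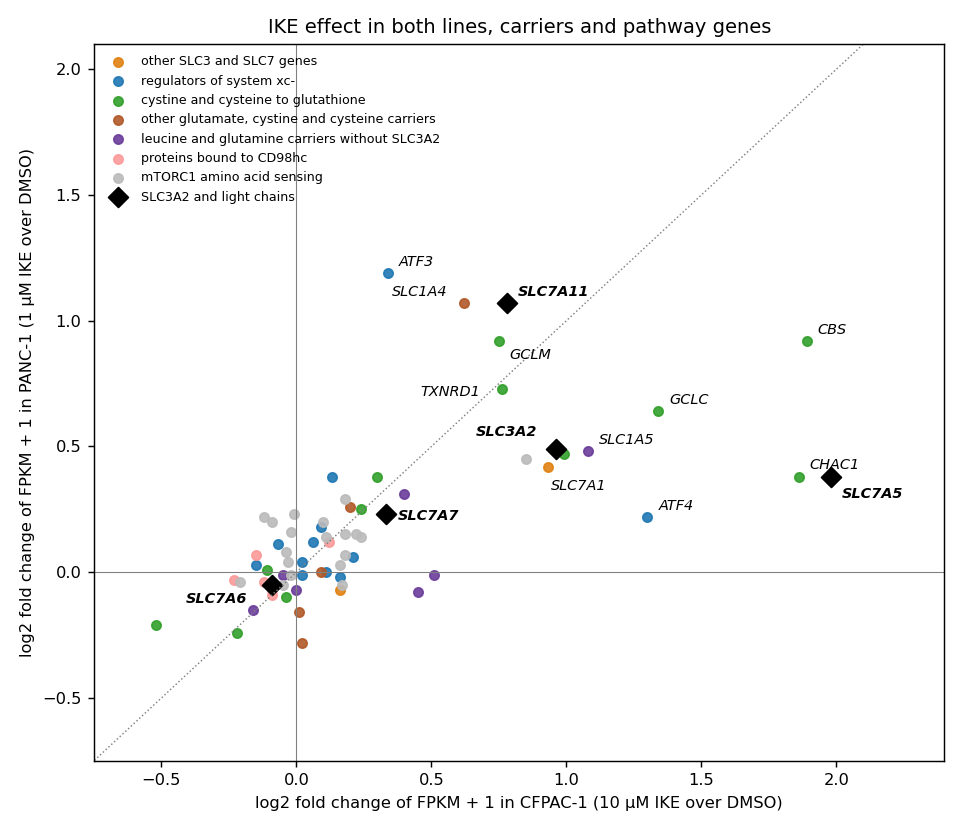
Log2 fold change of FPKM + 1 with IKE in PANC-1 (y axis, 1 µM) against that in CFPAC-1 (x axis, 10 µM) for the tested members (black diamonds) and the genes of the 7 pathway lists (coloured by list), with a dotted line where both are equal. SLC7A11 lies just above the line (1.07 in PANC-1, 0.78 in CFPAC-1), and SLC7A5, CHAC1, CBS and ATF4 lie far below it.

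The remaining lists held few calls. Of 7 proteins bound to CD98hc, 6 were tested and 0 were called in either line, with medians of -0.03 in PANC-1 and -0.11 in CFPAC-1. At an unadjusted limma p under 0.05 there were 0 in PANC-1 and 1 in CFPAC-1, BSG, which lay lower. Of 20 genes of amino acid sensing by mTORC1, the kinase that SLC7A5-borne leucine activates, 19 were tested. In PANC-1, 0 were called, with a median of 0.14, and 1 was called without IKE replicate 3. There 4 were higher at an unadjusted limma p under 0.05, for which no share of all genes was computed. In CFPAC-1 the leucine sensor SESN2 was the 1 gene called, with a log2 fold change of 0.85 (adjusted p = 0.0105) and a list median of 0.10. That call was lost without any 1 of the 4 CFPAC-1 libraries (adjusted p between 0.0652 and 0.098). Medians of the other lists were 0.08 in PANC-1 and 0.10 in CFPAC-1 for the regulators, and 0.17 in PANC-1 and 0.55 in CFPAC-1 for the other SLC3 and SLC7 genes. They were 0.00 in PANC-1 and 0.09 in CFPAC-1 for the carriers of glutamate, cystine and cysteine, and -0.01 in PANC-1 and 0.40 in CFPAC-1 for the leucine and glutamine carriers.

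Some of these genes also set the lines apart with DMSO. In that comparison 43.4% of all tested genes were called higher in PANC-1 and 35.2% lower. Of the 12 genes from cystine and cysteine to glutathione, 7 were called higher in PANC-1 and 2 lower. Of the 5 tested other carriers of glutamate, cystine and cysteine, 4 were called higher and 1 lower. GGT1, which breaks down glutathione outside the cell, averaged 0.815 ± 0.0919 FPKM in PANC-1 and 28.0 ± 1.76 FPKM in CFPAC-1 (a fitted ratio of 0.0627 for FPKM + 1, adjusted p = 3.96e-09). SLC1A1, a carrier of glutamate and cysteine, averaged 0.07 ± 0.0849 FPKM in PANC-1 and 27.7 ± 0.481 FPKM in CFPAC-1 (-4.75, adjusted p = 4.11e-12). GGT1 and SLC1A1 stayed below 1 FPKM in PANC-1, so they passed the filter through CFPAC-1, where they are high. SLC1A3, SLC1A4 and CHAC2, counted as higher, passed it through PANC-1. These calls are descriptions and no support for the counts. CBS ran the other way from GGT1 and SLC1A1, with 20.9 ± 0.0424 FPKM in PANC-1 and 2.81 ± 0.29 FPKM in CFPAC-1 (2.52, adjusted p = 1.54e-10). So did TXNRD1 (log2 difference 1.81), GPX4 (1.29), SLC1A4 (1.89), MFSD12 (1.84) and CTNS (1.67).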

How the data were processed

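Total RNA of 10 libraries from 2 cell lines was measured. Per the labels' protocols, libraries were rRNA-depleted and randomly primed, and the second strand was removed. Per the submitters' processing notes, StringTie 1.3.4, HISAT2 2.1.0, Bowtie2 2.2.8, fastp 0.18.0 and DESeq2 were used with the build GRCh38. The sources used here give neither their roles nor the annotation. The authors deposited FPKM values rounded to 2 decimals. Counts were not used here, so depth is unknown and counting error is not given. An exact FPKM of 0 can be a failed estimate.

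Libraries were grouped by the labels. Genes that reached 1 FPKM in 2 or more libraries (13077 of 20289) were transformed to log2(FPKM + 1), which understates changes of low genes, and fitted with limma 3.58.1 in R 4.3.3 as 4 group means with a trended prior (5.1 prior degrees of freedom beside 6 residual ones). Two-sided p-values were adjusted by the Benjamini-Hochberg method over all of these genes, with a threshold of 0.05. Shares and ratios were tested by exact permutation within lines. The fit was tested on simulated data. Named genes were all 6 members, up to 4 called genes per list and comparison with the smallest p plus ATF4 and NFE2L2, and the 3 most alike genes per member. GSR, ATF3 and BSG fall outside this rule and were named after their values were seen. Members, lists and tests were chosen with earlier results of these data known. Gene positions are from GENCODE 29 on GRCh38, and promoters are from RefSeq. Alternatives were quantile and median-ratio scaling, no filter or one of 5 FPKM, a pseudocount of 0.1, a replicate block, separate fits of each line, only replicates 1 and 2 or only 3 and 4 of PANC-1 with IKE, and leaving out each library. The alternative with replicates 3 and 4 was chosen after seeing the data.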

Additional observations from a re-analysis of the deposited data

Results flagged for a closer look

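In PANC-1 with IKE, a library lay apart from the other 3 in 3 of the 12 group measures examined, by Dixon's ratio of the gap to the range (95% critical value for 4 libraries, passed by chance in about 1 of 20 groups). Replicate 2 was highest for the SLC7A5 share (ratio 0.856) and for the SLC7A8 share (0.864), and replicate 1 was lowest for the log2 ratio of the light chains to SLC3A2 (0.974). The SLC7A8 share rests on values of 0.05 to 0.28 FPKM.

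The IKE effects differed between PANC-1 and CFPAC-1 by a test of the difference itself for SLC7A5 (-1.59 on the log2 scale, PANC-1 minus CFPAC-1), ATF4 (-1.08), CBS (-0.97, limma adjusted p = 0.00358) and CHAC1 (-1.48, adjusted p = 0.0176). The CHAC1 difference missed the threshold without any of the 4 CFPAC-1 libraries or without PANC-1 DMSO replicate 2 (adjusted p between 0.0579 and 0.101), and also with the replicate block (0.0881) and with only replicates 1 and 2 of PANC-1 with IKE (0.0646). The SLC7A11 share moved by 4.44 percentage points in PANC-1 and by -8.35 in CFPAC-1, a difference of 12.8. Its exact permutation test passed before adjustment over 6 measures and not after it. That test shuffled treatment labels within lines, so it cannot decide whether the lines differ. Line and dose cannot be told apart in any of these.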

How the results depend on the processing

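With PANC-1 IKE replicates 3 and 4 alone, 2 members in place of 1 had a lower IKE effect in PANC-1 than in CFPAC-1. Members called higher in PANC-1 ranged from 0 (without PANC-1 DMSO replicate 1) to 3 as 1 library was left out. Without SLC7A5 in the sum, the change of the SLC7A11 share reversed to 12.4 points (exact p = 0.0111) and the log2 ratio passed the threshold (-0.213). The change of the SLC7A6 share was -4.29 with PANC-1 IKE replicates 1 and 2 alone and -4.16 with 3 and 4 alone, each with an exact p of 0.0556, the smallest that 2 against 2 libraries per line can give, so the threshold could not be passed there. With 1 library left out, the log2 ratio ranged from -0.0644 to -0.00905 and the SLC7A8 share from -0.234 to -0.0889.

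Differences near 0 changed sign. The SLC7A6 log2 fold change in PANC-1 was 0.03 with the replicate block and 0.03 with IKE replicates 1 and 2 alone, and ranged from -0.13 to 0.03 with 1 library left out. The difference between the lines was -0.04 for SLC7A6 with IKE replicates 3 and 4 alone (range -0.04 to 0.12 with 1 library left out) and 0.11 for SLC7A7 with a pseudocount of 0.1 (range -0.25 to 0.04). The causes were not tested.

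Over all genes, 60 were lower in CFPAC-1, against 102 with quantile normalization, 97 in a fit per line, 32 with the replicate block and 16 to 104 with 1 library left out, and 113 were higher, against 64 to 152 with 1 left out. In PANC-1, 158 were higher, against 96 with the block and 35 to 206 with 1 left out. There 153 were lower, against 53 with the block, 80 per line, 66 and 274 with IKE replicates 1 and 2 or 3 and 4 alone, and 7 to 298 with 1 left out. For the difference between the lines, 14 were higher, against 23 with no filter, 8 with a pseudocount of 0.1, 3 with the block, 4 with IKE replicates 1 and 2 alone and 0 to 17 with 1 left out. There 30 were lower, against 12 with the block, 13 and 54 with IKE replicates 1 and 2 or 3 and 4 alone, and 13 to 46 with 1 left out.

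Same-numbered libraries of the 2 treatments had deviations that correlated by -0.00 in CFPAC-1 and by 0.12 and -0.03 in PANC-1, so the numbers were not taken to pair them, and the replicate block changed 1 of the members' counts, that between the lines with DMSO, where SLC3A2 joined the 2 members higher in PANC-1 (adjusted p = 0.0276). A fit per line gives no value for the difference between the lines. Values rounded to 2 decimals limit SLC7A8 and SLC7A7 in PANC-1, and 2 control libraries per line limit every IKE effect.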
